A study of Homo sapiens with 2 samples.

Results

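The 9 genes described here encode proteins that meet ubiquitin at the proteasome without being counted among its fixed subunits. They are the deubiquitinases USP14 and UCHL5, the ubiquitin ligases UBE3C, UBE3A and UBE4B, and the ubiquitin shuttles RAD23B, UBQLN1, UBQLN2 and UBQLN4. The genes were chosen by name, with earlier results of these data known. All 9 of them were found among the 20162 protein-coding genes of the annotation. The measurement was a list of 5683 sites bound by NRF1 in HCT116 cells, a human colorectal carcinoma line. The cells had been kept for 16 h in 1 µM MG132, a peptide aldehyde that inhibits the proteasome, and both the NRF1 ChIP sample and its input carried that treatment. NRF1 was immunoprecipitated with a rabbit polyclonal antibody raised against the mouse protein. The list came from 1 ChIP library, so no value below has a replicate error, binding without MG132 was not measured, and no difference between genes was tested. The depth of the library is unknown.

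NRF1, encoded by NFE2L1, is a bZIP transcription factor of the cap'n'collar family and is distinct from nuclear respiratory factor 1. It is held at the endoplasmic reticulum and degraded while proteasomes are active. When they are inhibited, it is processed, enters the nucleus and binds antioxidant response elements (AREs) as a dimer with small MAF proteins, and it is known for raising the transcription of proteasome subunit genes. The proteins considered here act around that machine. Ligases extend the ubiquitin chain on a substrate, shuttles carry the chain to the regulatory particle with a ubiquitin-like domain at 1 end and a ubiquitin-associated domain at the other, and deubiquitinases trim the chain once it has arrived.

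A gene was counted as having a peak when the centre of the peak lay within 20 kb of any of its transcription start sites (TSSs), and as having a promoter peak when it lay within 2 kb. A peak stood within 20 kb of 3 of the 9 genes, namely UBQLN1, RAD23B and UBE4B, beside 18.7% of all protein-coding genes. All 3 were promoter peaks, beside 6.03% of all protein-coding genes. The furthest centre was 116 bp from a TSS. No peak lay within 20 kb of USP14, UCHL5, UBE3C, UBE3A, UBQLN2 or UBQLN4, although these 6 genes hold 61 of the 81 distinct TSSs searched. By role, 2 of the 4 shuttles, 1 of the 3 ligases and neither deubiquitinase had a peak.

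The AREs under the peaks are shown first, since they are the sequence that NRF1 is known to bind. An ARE was read as TGAGNNNGC or TGACNNNGC, on either strand, and as the full form when it read TGAGTCAGC or TGACTCAGC, which also contains an AP-1 site (TGAGTCA or TGACTCA). The sequence is hg19, 10 bases are shown on each side of a site, capitals mark the ARE, and distances run from the canonical TSS to the middle of the site. The peak of UBQLN1 held 4 AREs, all on the minus strand, which is the strand of the gene, and that of RAD23B held 2, both on the plus strand, again that of the gene. Those of UBQLN1 are listed first, from the most upstream to the most downstream.
UBQLN1, chr9:86323278-86323286, 409 bp upstream of the TSS: aaggcgattgTGACAGCGCggaggggtga
UBQLN1, chr9:86322941-86322949, 72 bp upstream of the TSS: cagccggggaTGACTCGGCgacgccgcca
UBQLN1, chr9:86322828-86322836, 41 bp downstream, 5′ UTR in exon 1: gatgtcggtgTGAGCGAGCggcgcctgaa
UBQLN1, chr9:86322709-86322717, 160 bp downstream, 5′ UTR in exon 1: ccgttgctacTGAGGCGGCgtgctctgca
RAD23B, chr9:110045592-110045600, 36 bp downstream, 5′ UTR in exon 1: catcctgtggTGAGCTAGCggattccctg
RAD23B, chr9:110045668-110045676, 112 bp downstream, 5′ UTR in exon 1: gctcggcgcgTGAGGAAGCacggcggccc

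None of these 6 AREs had the full form. The UBQLN1 site 72 bp upstream came closest, with the single change A7G, counted from 1 at the first base of the element, and with the base of the full form given first. Both RAD23B sites differed at 2 bases, by T5C and C6T in the first and by T5G and C6A in the second. The peak of UBE4B held no ARE. The window of the same promoter held 1 ARE within 1 kb of the TSS, outside the peak.

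UBQLN1 encodes ubiquilin-1, a shuttle that also keeps membrane proteins soluble in the cytosol. Its peak, chr9:86322526-86323452, had a score of 735.45 and ranked 33 of the 5683 peaks. The score comes from the peak caller and rises with significance, each 10 units being a factor of 10 in the p-value. The lowest in the list was 50.00, which is a p-value of 1e-05. The median of the list was 91.86. Among the 1122 peaks within 2 kb of a protein-coding TSS, whose median score was 97.2, it ranked 17. It was also wide, at 927 bp against a median of 518 bp, and 2.76% of the promoter peaks were wider. The gene runs on the minus strand from 86322873 to 86274883, and the peak spanned its TSS, from 579 bp upstream to 347 bp downstream, with the centre 116 bp upstream. A TSS of the antisense gene UBQLN1-AS1 also lay within 2 kb of the centre, so that the peak can be assigned to either gene by distance.

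The 200 bases before the TSS of UBQLN1, read in the direction of transcription, show the ARE nearest to the peak centre in capitals, 44 bp from that centre. They lie upstream of the gene in the annotation and their GC content was 66.0%.
UBQLN1, chr9:86322874-86323073, minus strand: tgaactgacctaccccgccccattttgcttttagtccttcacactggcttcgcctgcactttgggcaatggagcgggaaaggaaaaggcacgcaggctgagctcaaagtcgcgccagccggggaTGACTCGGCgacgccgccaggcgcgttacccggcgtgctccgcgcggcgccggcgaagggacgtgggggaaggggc

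The letters TGACTCGGC were found in 38 of the 1122 promoter peaks (3.39%) and within 1 kb of the canonical TSS of 208 of 19881 protein-coding genes (1.05%). Of those 208 genes, 42 (20.2%) had a peak within 2 kb. The other AREs of UBQLN1 were commoner around genes at large. TGAGGCGGC lay in 754 promoter windows of 1 kb on each side, of which 57 (7.6%) belonged to genes with a peak within 2 kb. For TGAGCGAGC these counts were 332 and 26 (7.8%), and for TGACAGCGC 284 and 24 (8.5%). Such a peak need not hold the site, and the letters were in 13, 9 and 12 promoter peaks in the same order. The peak of UBQLN1 also held 1 AP-1 site, TGACTCA, at chr9:86322618-86322624, in the 5′ UTR 252 bp downstream of the TSS. The 9 bases that include it fell 1 base short of the full form on either strand, by G8C on the minus strand and by C9G on the plus strand.

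RAD23B encodes a shuttle that doubles as a partner of XPC in the recognition of damaged DNA. Its peak, chr9:110045168-110045968, scored 520.94 and ranked 106 of all peaks and 49 of the promoter peaks. It was 801 bp wide, and 6.95% of the promoter peaks were wider. The gene runs on the plus strand from 110045418 to 110094473. The centre of the peak fell 8 bp downstream of the TSS of the canonical transcript, in the 5′ UTR of exon 1, and the peak reached from 392 bp upstream to 408 bp downstream. Its nearest ARE, TGAGCTAGC, lay 28 bp from the centre. Those letters occurred in 3 of the promoter peaks (0.27%) and in the promoter windows of 116 genes, of which 2 (1.7%) had a peak. TGAGGAAGC, 104 bp from the centre, occurred in 13 of the promoter peaks (1.16%) and in 703 windows, 49 of them (7.0%) with a peak. Among all protein-coding genes 6.03% had a peak within 2 kb. Neither form was accompanied by a peak as often as the TGACTCGGC of UBQLN1, without a test of the difference. It held no AP-1 site.

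UBE4B encodes a U-box ligase that lengthens ubiquitin chains begun by other ligases. Its peak, chr1:10092782-10093273, scored 75.81, below the median of the list, and ranked 3630 of all peaks and 733 of the promoter peaks. It was 492 bp wide. The gene runs on the plus strand from 10092890 to 10241297, and the centre fell 11 bp downstream of the canonical TSS, in the 5′ UTR of exon 1. By position the UBE4B peak was as close to the TSS as that of RAD23B, while its score was lower by a factor of 6.87. The score of UBQLN1 exceeded that of RAD23B by a factor of 1.41 and that of UBE4B by a factor of 9.7. These factors compare single scores without an error, on the logarithmic scale of the p-value, and are not fold differences in binding. The order of the 3 peaks is a description of this library.

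The part of the UBE4B peak upstream of the gene is shown because no ARE was found in it. Capitals are absent for that reason, and the absence says only that these letters are not in this window. The site nearest to the full form, TGGCTCAGG at chr1:10092783-10092791, starts at the second of these bases and differs by A3G and C9G.
UBE4B, chr1:10092782-10092889, plus strand: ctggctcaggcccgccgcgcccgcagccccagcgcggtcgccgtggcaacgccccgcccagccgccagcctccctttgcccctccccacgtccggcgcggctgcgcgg

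**Figure D1:**
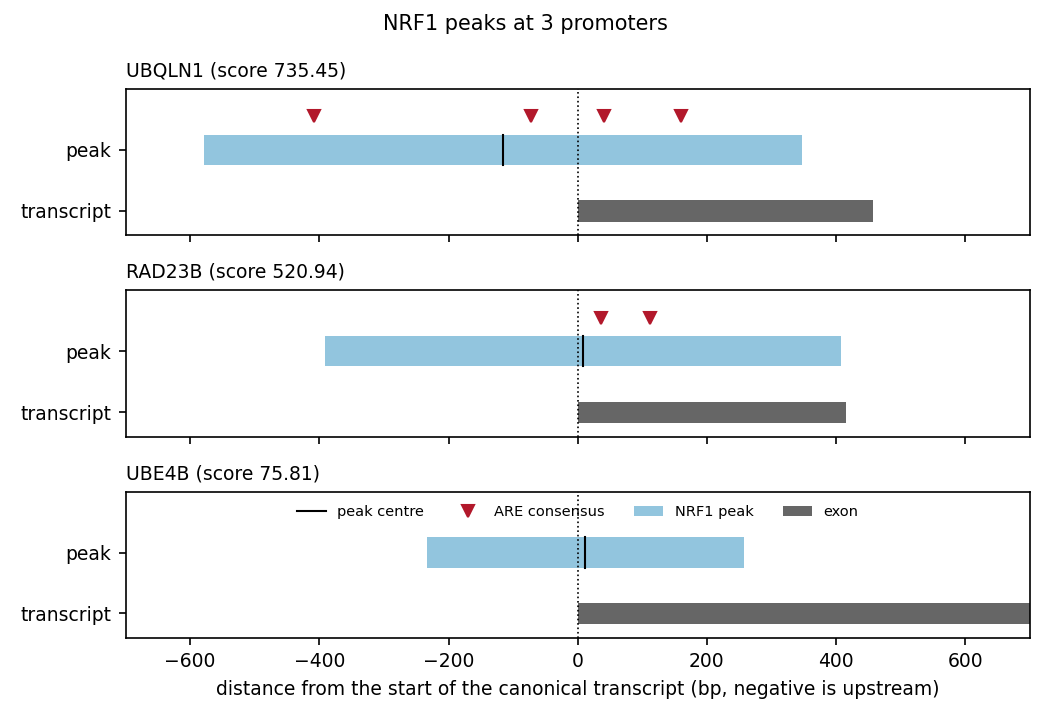
Position of the NRF1 peak (light blue), its centre (black line), AREs (triangles) and exon 1 of the canonical transcript (grey) at UBQLN1, RAD23B and UBE4B, as distance from the TSS in bp. All 3 peaks span the TSS, the UBQLN1 centre lies 116 bp upstream, and the UBE4B peak has no ARE.

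The 3 peaks were above the median in GC and CpG. Their GC content was 63.3% at UBQLN1, 72.0% at RAD23B and 70.7% at UBE4B, against a median of 54.6% over the promoter peaks, of which 22.6%, 4.90% and 7.31% had a higher one. The number of CpG per 100 bases was 8.95, 11.9 and 9.96 in the same order, against a median of 2.75. The part of this base composition in the peaks or their AREs was not tested.

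AREs were frequent in the list as a whole. An ARE was present in 85.2% of the 1122 promoter peaks (95% Wilson interval 83.0% to 87.2%) and the full form in 43.2% (40.4% to 46.1%). The intervals cover counting error only. UBQLN1 and RAD23B thus belonged to the 471 promoter peaks (42.0%) with an ARE but no full form, and UBE4B to the 166 (14.8%) with no ARE, whose median score was 73.54. By the closest site, 397 promoter peaks (35.4%) were 1 base away from the full form, as UBQLN1 was, and 225 (20.1%) were 2 bases away, as RAD23B and UBE4B were. Of the 637 promoter peaks without the full form, 9 scored as high as UBQLN1 or higher, counting UBQLN1 itself, and 28 as high as RAD23B or higher. The score of UBE4B was reached by 384 of the 637, whose median was 86.8. An ARE also lay within 1 kb of the TSS of 85.5% of all protein-coding genes, with a median of 2 per gene, and of the 9 genes 7 had at least 1 there.

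The genes without a peak are described by their nearest peak, measured from the centre to the closest TSS. Over all protein-coding genes the median of this distance was 105.2 kb. USP14 encodes a deubiquitinase that docks on the regulatory particle and removes chains before the substrate is committed. The gene occupies 158383 to 214629 of chromosome 18, plus strand. Its nearest peak, with a score of 282.8, lay 216.9 kb away, downstream. A nearer peak was found for 69.2% of protein-coding genes. UCHL5, also called UCH37, trims chains after binding the ubiquitin receptor ADRM1. It lies on the minus strand of chromosome 1 from 193029210 to 192981380. Its nearest peak, 61.6 kb upstream, scored 54.57 and had its centre within 2 kb of a TSS of CDC73, a subunit of the PAF1 complex. Its distance was shorter than the median, and 37.0% of genes had a nearer peak. Both deubiquitinases had 3 AREs within 1 kb of the TSS, above the median of 2, and no full form within 20 kb.

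Among the ligases, UBE3C extends chains on substrates that stall at the proteasome. Its gene, at 156931620 to 157062064 on chromosome 7, plus strand, came closest to the limit of 20 kb from outside. The nearest peak, chr7:157092767-157093146, lay 43.6 kb from the last of its 8 TSSs, 161.3 kb from the canonical TSS and 30.9 kb beyond the end of the gene, and scored 54.78. A nearer peak was found for 30.1% of genes. UBE3A, the E6AP ligase that is lost in Angelman syndrome, has 28 TSSs on the minus strand of chromosome 15, between 25684198 and 25578875. It stood in a long stretch without peaks, with the nearest 1.87 Mb from a TSS on 1 side of the gene and 3.38 Mb from the gene on the other. The scores of these peaks were 54.76 and 51.95, and 97.8% of protein-coding genes had a nearer peak. At UBE4B, the second nearest peak, 32.7 kb from a TSS and at the KIF1B gene, scored 58.65.

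Of the ubiquilins, UBQLN4 and UBQLN2 are relatives of UBQLN1 with the same domains at their ends. UBQLN4 runs on the minus strand of chromosome 1 from 156023589 to 156005090. Its nearest peak, 54.4 kb upstream, scored 70.11 and held the full form. The centre of that peak lay within 2 kb of a TSS of LMNA, which encodes the lamins A and C. A nearer peak was found for 34.3% of genes. UBQLN2, mutated in a form of amyotrophic lateral sclerosis, is a gene of 1 exon on the plus strand of chromosome X, from 56590060 to 56594301. Its nearest peaks lay 6.02 Mb upstream and 8.27 Mb downstream, with scores of 82.32 and 52.91, and 99.2% of genes had a nearer peak. Chromosome X held 56 peaks in all, or 0.36 per Mb, the lowest density of any chromosome except Y, and the highest was 3.74 per Mb on chromosome 17. The promoter window of UBQLN2 held 7 AREs, the most of the 9 genes, none of them of the full form. That of UBQLN1 held 6, and those of UBQLN4 and UBE3C held none.

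**Figure D2:**
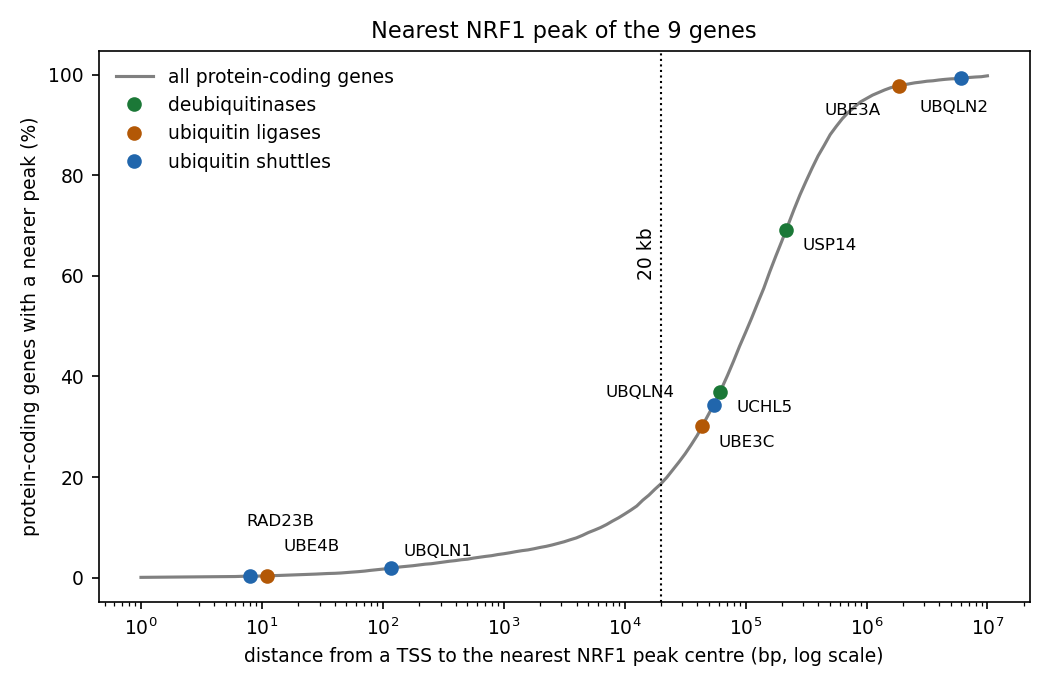
Share of protein-coding genes with a nearer peak (vertical, in percent) against the distance from a TSS to the nearest NRF1 peak centre (horizontal, in bp, log scale), with the 9 genes as points coloured by role on the curve of all protein-coding genes. RAD23B, UBE4B and UBQLN1 lie at 8, 11 and 116 bp, none lies between 116 bp and 43.6 kb, and UBE3A and UBQLN2 lie at 1.87 and 6.02 Mb.

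The full form was then searched for within 20 kb of the canonical TSS. It was found 7 times around 6 of the genes, UBE3C having it 2 times, and 0 of these 7 sites lay in a peak. None lay within 1 kb of a TSS, where 3.6% of all protein-coding genes had one. The sites are shown because they have every letter of the element without a peak over them. Capitals mark the full form, and distances are from the canonical TSS.
UBE3C, chr7:156918057-156918065, plus strand, 13.6 kb upstream: actcctcctgTGACTCAGCccctccctcc
UBE3C, chr7:156929238-156929246, plus strand, 2.4 kb upstream: aactaccacaTGACTCAGCgatccctctg
UBE3A, chr15:25692558-25692566, plus strand, 8.4 kb upstream: tatgtgatacTGAGTCAGCtacttaattt
RAD23B, chr9:110042314-110042322, plus strand, 3.2 kb upstream: tgcacaggacTGACTCAGCccctgtctca
UBQLN1, chr9:86336409-86336417, plus strand, 13.5 kb upstream: cccacatagtTGAGTCAGCagctgtgatt
UBQLN2, chrX:56600935-56600943, minus strand, 10.9 kb downstream, past the transcript: aaaggccttgTGAGTCAGCcagaaaaaca
UBQLN4, chr1:156032091-156032099, minus strand, 8.5 kb upstream: gcaggtccagTGAGTCAGCcaagggccag

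At RAD23B and UBQLN1, then, the peak sat on AREs of another form at the TSS, and the full form 3.2 kb or 13.5 kb further upstream had none. Such sites without a peak were common. Of 53132 full-form sites on chromosomes 1 to 22, X and Y, 3915 (7.37%) lay in a peak. A full-form site was found within 20 kb of 53.8% of protein-coding genes and in a peak at that distance for 6.7%.

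**Figure D3:**
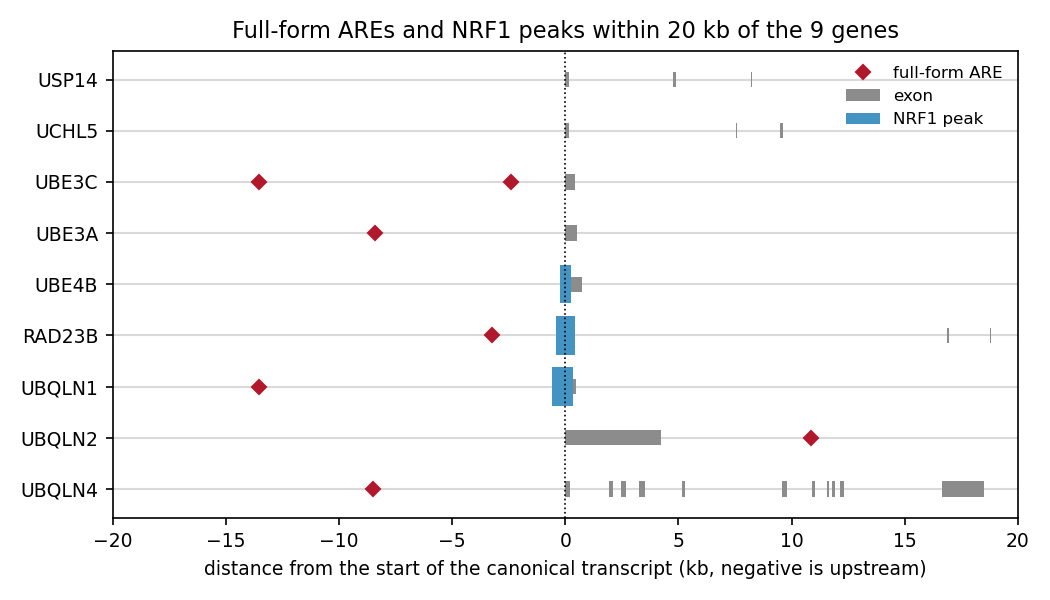
Full-form AREs (diamonds), NRF1 peaks (blue) and exons of the canonical transcript (grey) within 20 kb of the TSS of each of the 9 genes, as distance from that TSS in kb with negative values upstream. The 7 diamonds lie outside the 3 peaks, and UBE3C has 2 of them.

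Further lists of genes, also chosen with earlier results of these data known, set the 9 beside their partners and relatives. Their counts stand beside the same 6.03% of all protein-coding genes with a promoter peak and 18.7% with a peak within 20 kb. The first held 5 proteasome subunits that bind or cut ubiquitin or hold the proteins that do so, and all 5 had a promoter peak. PSMD14, the deubiquitinase of the lid, scored 1128.13 and ranked 7, PSMD1, a scaffold of the base, 925.88, and ADRM1, the receptor that UCHL5 docks on, 781.39. PSMD2, the subunit on which USP14 and the shuttles dock, scored 433.37, and PSMD4, a ubiquitin receptor, 380.09. The median of the 5 was 781.39, and that of the 3 peaks of the genes described here was 520.94. The docking subunits of both deubiquitinases thus had a promoter peak, while USP14 and UCHL5 had none within 20 kb. The full form was present in the peaks of PSMD1 and PSMD2, and the peak of PSMD4, like that of UBE4B, held no ARE. The peak of PSMD14 held TGAGGCGGC and that of PSMD2 held TGACAGCGC, the same letters as 2 of the AREs of UBQLN1. In that order these 2 forms lay in 754 and 284 promoter windows, of which 7.6% and 8.5% had a peak, beside 6.03% of all genes. Whether the shared letters bear on binding was not tested.

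The second list held 8 relatives of the genes, of which 1 had a promoter peak, a share near the 6.03% of all protein-coding genes at this size of list. UCHL1, a neuronal relative of UCHL5, scored 145.43, and its peak held no ARE. The centre lay 1715 bp upstream of the nearest annotated TSS of UCHL1, which need not be the canonical one. UBQLNL, a relative of the ubiquilins, had no peak within 20 kb. UBE3B, relative of UBE3C, had none, and the nearest peak of UBE4A, relative of UBE4B, was 22.3 kb away. UCHL3, BAP1, DDI1 and DDI2 had none either, DDI2 being the protease that cleaves NRF1.

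The third list held 12 other proteins found with proteasomes, and 6 had a promoter peak, beside 6.03% of all protein-coding genes, and 8 a peak within 20 kb, beside 18.7%. Their best promoter peaks scored 307.89 for ECPAS, a proteasome adaptor, 307.41 for ZFAND2A and 299.99 for the ligase KCMF1. Those of TXNL1, a thioredoxin-like protein of the regulatory particle, ZFAND5 and the assembly factor PAAF1 scored 288.71, 281.88 and 97.09. The centre of the PAAF1 peak lay 1926 bp from the nearest TSS of the gene, and those of the others at most 252 bp. The ARE of TXNL1 had the same letters, TGACTCGGC, as the ARE nearest to the centre at UBQLN1. ZFAND2A alone among these had the full form, TGAGTCAGC, and its peak also held TGAGGCGGC. AKIRIN2 and RNF181 had a peak within 20 kb, and UBR4, HUWE1, NUB1 and FBXO7 had none. UBQLN1 and RAD23B scored above all 6 of these genes, and UBE4B scored below them.

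**Figure D4:**
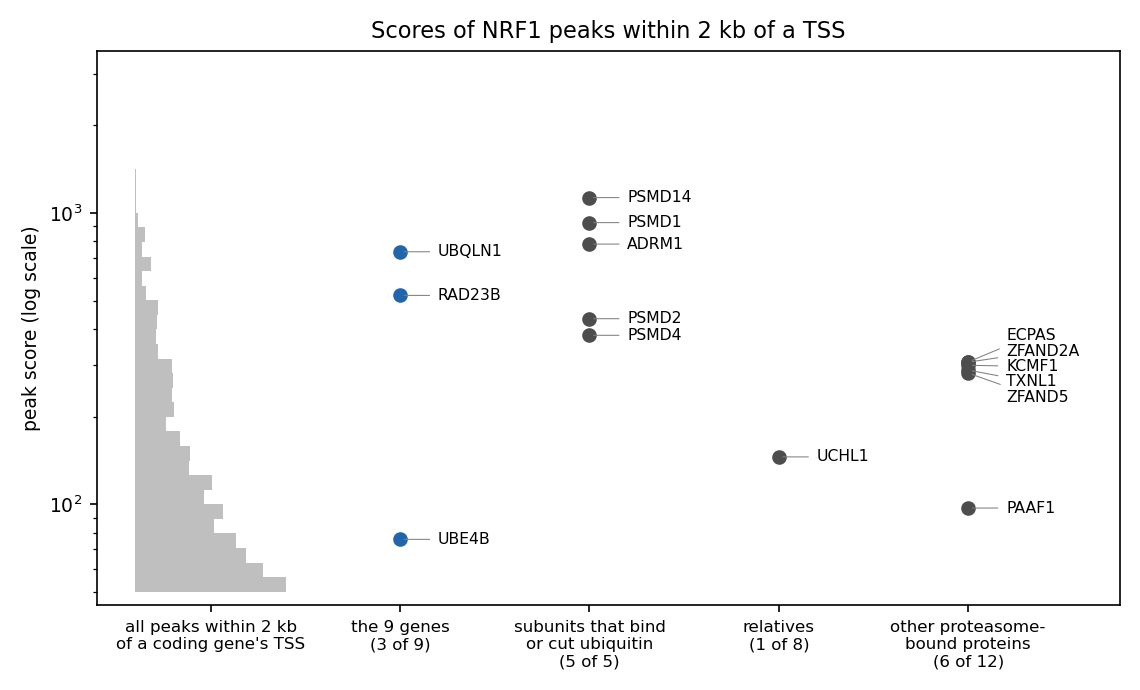
Scores (vertical, log scale) of the best NRF1 peak within 2 kb of a TSS for the 9 genes and the other lists, each point 1 gene, beside a histogram of the 1122 promoter peaks in grey. UBQLN1 (735.45) and RAD23B (520.94) lie among the subunits that bind or cut ubiquitin, and UBE4B (75.81) lies in the lower part of the histogram.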

How the data were processed

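According to the labels and the methods, chromatin from HCT116 cells was immunoprecipitated for NRF1 and sequenced with single-end reads. The authors mapped the reads to hg19 with Bowtie2 2.2.6 and called peaks with MACS 1.4.2. For every peak the deposited list holds its coordinates and a score, which MACS derives from the p-value (its negative log10 multiplied by 10). The MACS settings, the removal of duplicates and the control library are not given in the sources used here. The input library was not analysed here.

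Starts were made 1-based. The 5678 peaks on chromosomes 1 to 22, X and Y were compared with all TSSs of GENCODE 44 mapped to GRCh37, which is hg19. Genomic sequence came from the same build, and motifs were searched in 5673 peaks, those without undetermined bases. The study's own annotation of peaks, of which only a shortened copy was used, added no peak. Scripts used Python 3.11.15, pandas 2.3.3, pysam 0.24.0 and SciPy 1.17.1. The code of the motif search was checked on simulated sequences of A and T only, where 200 of 200 planted AREs were found. This does not measure how often AREs occur by base composition in sequence rich in GC. The genes and lists were chosen with earlier results of these data known. The list of relatives was shortened afterwards by genes that are not reported here, for a reason unrelated to their values, and every gene of the lists as given is named. Alternatives were a score threshold of 100, other windows, distances from peak edges, TSSs of protein-coding transcripts, merged peaks, the full ARE form and the central 200 bp.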

Additional observations from a re-analysis of the deposited data

How the results depend on the processing

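The count of genes with a peak was 3 of 9 under each alternative but these. With scores of at least 100 it was 2 within 20 kb and within 2 kb, as UBE4B was lost, while the share of all protein-coding genes fell to 9.48% and 3.02%. With a window of 50 kb it was 4, as UBE3C was added, and the share was 32.7%. With windows of 10 kb and 1 kb the share was 12.6% and 4.76%. With TSSs of protein-coding transcripts alone it was 16% within 20 kb and 4.94% within 2 kb. Measuring from peak edges gave 18.8% and 6.23%, and merging peaks 18.7% and 6.02%. With the full form required, 0 of the 3 peaks held an ARE, and in the central 200 bp 2 did. No paired analysis was possible because there was 1 ChIP library. The unknown depth limits what a missing peak can say, since weaker binding may fall below the lowest score.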
